A study of Mus musculus with 12 samples.

Results

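Bmp4 and Nog encode a secreted ligand of the bone morphogenetic protein (BMP) pathway and a secreted protein that binds BMPs and keeps them from their receptors. Trimethylation of lysine 27 of histone H3 (H3K27me3), the mark deposited by Polycomb repressive complex 2, was read at both genes on a custom microarray. The genes were examined in 3 of the 39 tiled regions of that array. The Bmp4 region lies at chr14:46997828-47020253 (mm9) and holds 250 probes, and the Nog region lies at chr11:89158913-89169661 and holds 119 probes. A separate stretch of 473 probes at chr14:46679104-46722265, 275.6 kb from the Bmp4 region, served as a flank. Together these are 842 of the 48316 probes outside control spots. The loci were chosen by their measured difference between neural progenitor cells (NPCs) and embryonic stem cells (ESCs), so every value of that contrast below is a description and carries no test.

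The array compared 6 populations, each hybridised to 2 arrays named R1 and R2. All derive from the male mouse ESC line 46c, in which a GFP reporter was placed in the Sox1 gene, a marker of neural progenitors. Of the 5 ESC populations, the control carried eGFP, and the others carried a TALE DNA-binding protein fused to the Vp64 activation domain: tShh-Vp64, aimed at the Shh promoter, tSBE6-Vp64 or tSBE2-Vp64, aimed at a Shh brain enhancer, or tSBE(6+2)-Vp64, named for both enhancers. ESCs were transfected transiently with a lipid reagent, and NPCs were made by N2B27 differentiation, with no day given in the labels. No construct was aimed at Bmp4 or Nog. Each population is 1 sample, since for eGFP, tShh-Vp64 and tSBE2-Vp64 ESCs both arrays carry the number of 1 biological replicate, and no number is stated for the others. The eGFP, tShh-Vp64, tSBE6-Vp64 and tSBE2-Vp64 arrays lay on 1 slide, and the NPC and tSBE(6+2)-Vp64 arrays on another.

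BMP signals act through paired serine/threonine kinase receptors that phosphorylate SMAD proteins, which then enter the nucleus. In mouse ESCs BMP4 is known to help hold back neural differentiation, and Noggin and other BMP antagonists permit it. Polycomb complexes are known to mark the CpG-rich starts of many developmental genes in ESCs. Of a list of 35 BMP ligands, antagonists, receptors, signal transducers and targets, 2 have a promoter on this array, namely Bmp4 and Nog themselves. The arrays measure no RNA, and in these bulk populations more cells with the mark and more mark per cell cannot be told apart.

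Bmp4 lies on the minus strand at chr14:47003195-47010344 in the GENCODE annotation of mm9. The antisense transcript Gm15222 lies inside it, and Gm15217 runs toward it from the other side and overlaps its end. The 250 bases upstream of the Bmp4 start, from RefSeq (GRCm38) and found once in mm9 at chr14:47010345-47010594, are shown on the minus strand because this window stood near 0 in ESCs and far above 0 in NPCs. The capitals mark each CG dinucleotide.
Bmp4 promoter: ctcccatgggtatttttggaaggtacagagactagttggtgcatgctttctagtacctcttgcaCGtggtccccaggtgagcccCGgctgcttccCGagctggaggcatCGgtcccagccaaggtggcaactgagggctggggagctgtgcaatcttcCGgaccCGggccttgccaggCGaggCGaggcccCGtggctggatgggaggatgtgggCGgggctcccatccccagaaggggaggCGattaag
The stretch holds 11 CG on either strand, as CG reads the same on both, and 35.6% of 32851 RefSeq promoter stretches of the same length hold at least as many (median 6). The following 60-base probes, in mm9 on the minus strand, were picked by their values among probes outside untranslated exons that were measured on all 12 arrays, and show where the loci differ. In Bmp4, the first probe is the intron probe with the highest ESC mean (chr14:47008719-47008778) and the second has the largest NPC minus ESC difference (chr14:47011927-47011986, upstream of the gene). In Nog, they are the probes of the coding exon with the highest (chr11:89162811-89162870) and the lowest (chr11:89162984-89163043) ESC mean.
Bmp4 intron probe: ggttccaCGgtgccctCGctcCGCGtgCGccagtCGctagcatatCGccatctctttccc
Bmp4 upstream probe: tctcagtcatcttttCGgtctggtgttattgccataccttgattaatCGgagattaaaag
Nog high coding probe: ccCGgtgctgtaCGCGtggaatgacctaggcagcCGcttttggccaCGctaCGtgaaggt
Nog low coding probe: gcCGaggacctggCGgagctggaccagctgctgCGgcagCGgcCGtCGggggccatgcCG
Values are log2 ratios of the deposited Cy5 over Cy3 signals, centred on each array's median of 0. This is the direction of the authors' deposited log2 ChIP/input ratios, whereas the labels assign Cy3 to ChIP, and if the dye labels hold every sign below is the opposite. The Bmp4 intron probe, with 7 CG, read 5.69 and 5.56 on the NPC arrays and 0.88 to 3.81 on the 10 ESC arrays. The upstream probe, with 2 CG, read 5.24 and 5.49 on the NPC arrays and from -0.64 to 1.21 on the ESC arrays. In Nog, the high coding probe, with 6 CG, read 2.23 and 2.26 in NPCs and 1.46 to 3.66 in ESCs. The low coding probe, also CG-rich with 7 CG, stood close to 0 in all cells, at 0.07 on both NPC arrays and from -0.52 to 0.40 on the ESC arrays.

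As a check of the labels, the Pou5f1 promoter, of the pluripotency factor Oct4, read 1.88 in NPCs against -0.41 ± 0.07 (SD, n = 5) in ESC populations. The Nes promoter, of the progenitor filament nestin, read -0.05 in NPCs against 0.71 ± 0.14. On each array 328 to 3122 probes carried an outlier mark and were left out. Arrays of the same population correlated across probes at 0.79 to 0.88. Across tiles, the values of a population rose with those of the other ESC populations with a slope of 0.86 (tShh-Vp64) to 1.24 (NPC), so the arrays differ in range.

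The Bmp4 region stood near the array median in every ESC population and far above it in NPCs. Its mean over 250 probes was 2.70 and 2.59 on NPC arrays R1 and R2. In eGFP ESCs the 2 arrays read 0.22 and 0.18, and in tSBE(6+2)-Vp64 ESCs, the highest of the ESC populations, 0.41 and 0.39. The other ESC arrays lay lower, at 0.10 and 0.06 in tShh-Vp64, 0.10 and 0.07 in tSBE6-Vp64, and 0.14 and 0.15 in tSBE2-Vp64 cells. Arrays of the same population lay close to each other, and NPC and ESC arrays did not overlap. The difference between NPCs and the ESC mean of 0.18 ± 0.13 (SD, n = 5) was 2.47. Against tSBE(6+2)-Vp64 ESCs of the same slide it was 2.25. Among the 39 tiled regions this difference ranked 1, while the ESC mean ranked 20 and the NPC level 6. With the sign of the ratio turned these ranks are 39, 20 and 34, and above and below are exchanged in every count given here.

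**Figure D1:**
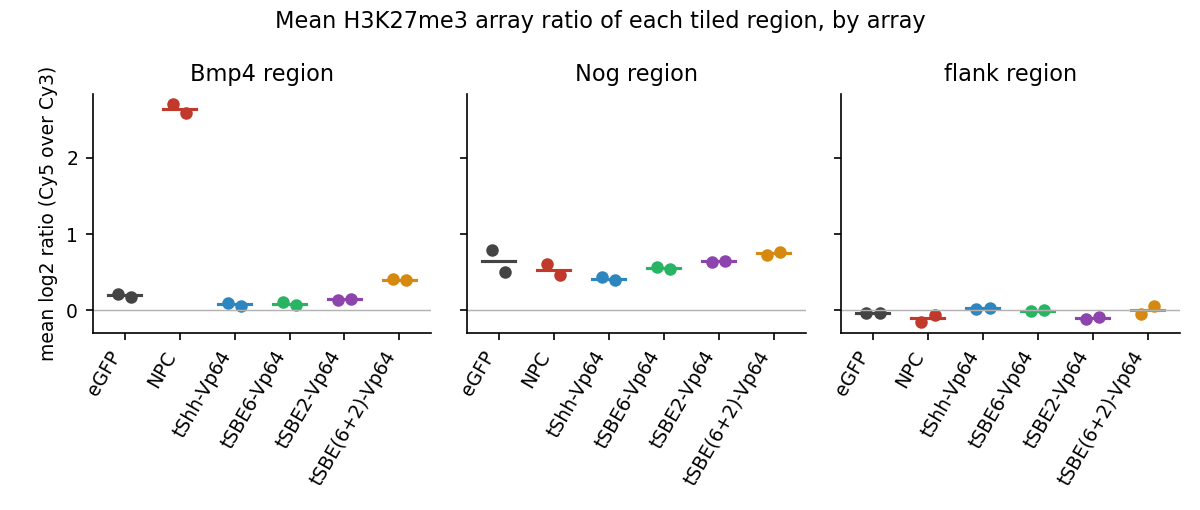
Mean log2 ratio (Cy5 over Cy3, y axis) over all probes of the Bmp4, Nog and flank regions, with a point for each array and a bar for the mean of the 2 arrays of a population. The NPC arrays lie at 2.70 and 2.59 in the Bmp4 region, apart from the ESC arrays at 0.06 to 0.41, and within or beside the ESC arrays in the other regions.

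The difference lay mainly in the Cy5 channel. The mean Cy5 signal over the Bmp4 region, in log2 units from the array median, was 2.88 and 2.75 on the NPC arrays and 0.44 to 0.73 on the ESC arrays. The Cy3 signal was 0.41 and 0.40 on the NPC arrays and 0.43 to 0.61 on the ESC arrays. The NPC minus ESC difference was thus 2.26 in Cy5 and -0.13 in Cy3. In the Nog region the same differences were -0.19 and -0.06. The share of Bmp4 probes well above background on the array with the fewest was 94.0% in Cy5 and 69.2% in Cy3.

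**Figure D2:**
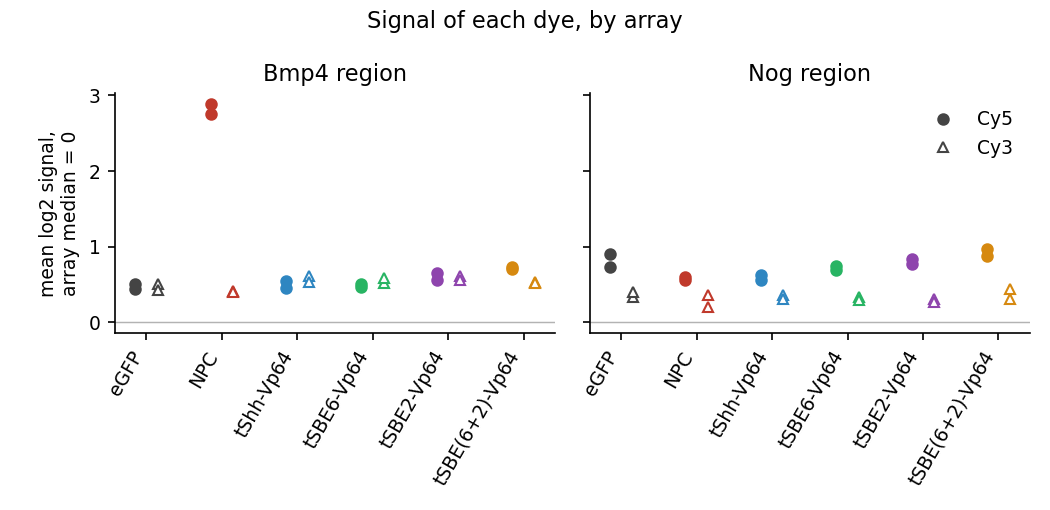
Mean log2 signal (y axis, array median at 0) of the Bmp4 and Nog regions in Cy5 (filled circles) and Cy3 (open triangles), with a symbol for each array of the 6 populations. The Cy5 signal of the NPC arrays at Bmp4, at 2.88 and 2.75, lies far above the ESC arrays, and their Cy3 signal, at 0.41 and 0.40, just below them.

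Along the locus, NPC arrays were above all ESC arrays from end to end. In 23 of 23 bins of 1 kb both NPC arrays lay above all 10 ESC arrays. The share of 1 kb bins over the whole array was not counted, and that of 2 kb tiles was 30.1% of 2258. The NPC level ran from 1.50 to 3.88 and the NPC minus ESC difference from 1.17 to 3.84, with a median of 2.58. The highest difference, 2 to 3 kb upstream, came from 5 probes, of whose Cy3 spots 30.0% on the NPC and 66.0% on the ESC arrays were well above background. The lowest difference lay in the last bin, 12 to 13 kb downstream of the start, beyond Gm15217, where NPCs read 1.62 and the ESC mean 0.45. At the other end, 9 to 10 kb upstream, NPCs still read 2.58, so neither edge of the elevated stretch was reached within the tiled sequence. Bins hold different probes, and the part of their own response in the shape of a profile was not tested. The ESC mean per bin ran from -0.14 to 1.03, and across the 23 bins, which share their arrays, its Pearson correlation with the NPC level was 0.30.

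**Figure D3:**
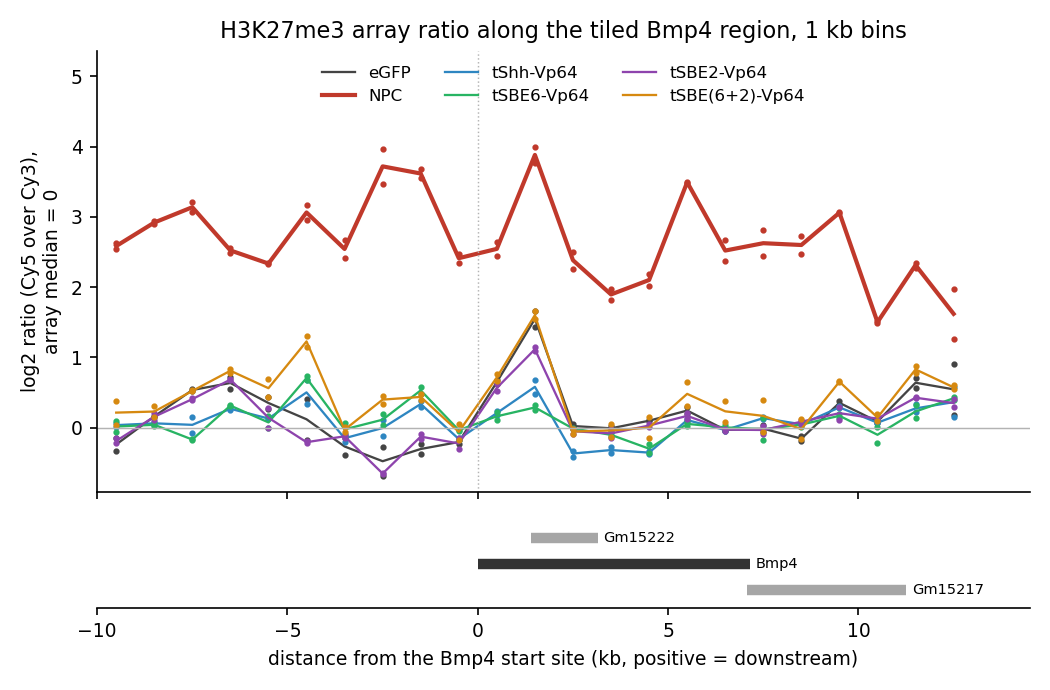
Log2 ratio (Cy5 over Cy3, y axis) in 1 kb bins against the distance from the Bmp4 start site in kb (x axis, positive downstream), with a line for each population, points for its 2 arrays, and gene extents below (dark, same strand as Bmp4). NPCs lie between 1.50 and 3.88 throughout, and 4 of the 5 ESC populations have their highest bin 1 to 2 kb downstream of the start, tSBE6-Vp64 cells 4 to 5 kb upstream of it.

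The promoter, 1 kb on either side of the start, read 2.56 and 2.40 on the NPC arrays and 0.02 to 0.37 on the ESC arrays, a difference of 2.31. The rest of the gene body read 2.71 in NPCs against 0.16 ± 0.19 (SD, n = 5), the upstream part 2.90 against 0.18 ± 0.16, and the downstream part 2.31 against 0.21 ± 0.10. Among 113 promoters on the array, the Bmp4 promoter difference ranked 2 (112 with the sign turned). The promoter of Gm15222 read 2.02 in NPCs against -0.12 ± 0.13, and that of Gm15217 2.04 against 0.30 ± 0.17.

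All ESC populations but tSBE6-Vp64 cells, whose highest bin lay 4 to 5 kb upstream, had their maximum in the first intron of Bmp4, 1 to 2 kb downstream of the start, where the intron probe shown above lies and Gm15222 overlaps. Its 12 probes averaged 1.66 and 1.43 on the eGFP arrays, 1.55 and 1.66 on the tSBE(6+2)-Vp64 arrays and 1.09 and 1.14 on the tSBE2-Vp64 arrays. They averaged 0.68 and 0.48 on the tShh-Vp64 arrays and 0.32 and 0.25 on the tSBE6-Vp64 arrays. The 5 populations thus ran from 0.29 to 1.60, while arrays of the same population differed with an SD of 0.10, and eGFP and tSBE(6+2)-Vp64 cells did not separate. NPCs averaged 3.88 in the same bin, their highest along the locus. The window holds 5.11 CG per 100 bp, against 2.42 over the region. The next bin, 2 to 3 kb downstream, holds 7.05 and had an ESC mean of -0.09. Across the 23 bins the ESC mean and the CG density correlated at 0.01 (Pearson, bins of the same arrays).

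Upstream of the gene the ESC populations took another order. In the bin 4 to 5 kb upstream, with 7 probes, tSBE(6+2)-Vp64 arrays read 1.15 and 1.31, tSBE6-Vp64 arrays 0.74 and 0.68, and tShh-Vp64 arrays 0.33 and 0.67. The eGFP arrays read 0.41 and -0.18, and the tSBE2-Vp64 arrays -0.22 and -0.19. Both tSBE(6+2)-Vp64 arrays stood clearly above all other ESC arrays there, and both tSBE2-Vp64 arrays lay just below all others. The NPC arrays, on the slide of the tSBE(6+2)-Vp64 arrays, read 2.95 and 3.17. Of the bin's Cy3 spots, 62.9% on the ESC arrays were well above background. Over the whole array this share was 58.2% and 73.8% on the tSBE(6+2)-Vp64 arrays, against 78.3% to 94.7% on the other ESC arrays. The part of this weaker Cy3 signal in the difference was not tested. Over the whole upstream part tSBE(6+2)-Vp64 ESCs read 0.45 against 0.08 to 0.15 in the other ESC populations. Since tSBE(6+2)-Vp64 and eGFP cells lay on different slides, construct and slide cannot be told apart in this difference. Across the 23 Bmp4 bins the eGFP profile correlated with that of tSBE2-Vp64 cells at 0.94, of tSBE(6+2)-Vp64 cells at 0.76, of tShh-Vp64 cells at 0.56 and of tSBE6-Vp64 cells at 0.24 (Pearson, bins of the same arrays).

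The Nog region carried a moderate level that NPCs shared with ESCs. Nog is a single-exon gene on the minus strand at chr11:89161952-89163873, with the transcript Gm2018 starting close by on the other strand. Its 119 probes averaged 0.61 and 0.46 on the NPC arrays. They averaged 0.79 and 0.50 in eGFP, 0.43 and 0.40 in tShh-Vp64 and 0.57 and 0.54 in tSBE6-Vp64 ESCs. In tSBE2-Vp64 and tSBE(6+2)-Vp64 ESCs they averaged 0.63 and 0.65, and 0.73 and 0.77. NPC and ESC arrays overlapped. The NPC level of 0.53 differed from the ESC mean of 0.60 ± 0.12 (SD, n = 5) by -0.07, less than the spread among ESC populations, and from tSBE(6+2)-Vp64 ESCs of the same slide by -0.21.

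At Nog the ratio was highest in the 3′ part of the gene. The bin 1 to 2 kb downstream of the start, which holds the high coding probe, read 2.64 and 2.44 in eGFP, 2.17 and 2.44 in tSBE(6+2)-Vp64 and 2.12 and 2.00 in tSBE2-Vp64 ESCs. It read 2.00 and 1.70 in NPCs, 1.57 and 1.58 in tShh-Vp64 and 1.49 and 1.44 in tSBE6-Vp64 ESCs. The Cy5 signal of this bin was 0.52 ± 0.40 (SD, n = 5) in ESC populations and the Cy3 signal -1.31 ± 0.12, so the high ratio went with a low Cy3 signal, and on the array with the fewest 33.3% of its probes were well above background in Cy3. At the promoter the signals were 0.89 ± 0.11 in Cy5 and 1.16 ± 0.04 in Cy3. The order of the ESC populations was close to that in the Bmp4 intron, with eGFP and tSBE(6+2)-Vp64 cells highest and tSBE6-Vp64 cells lowest. That order was not particular to these genes. At the Shh promoter eGFP and tSBE(6+2)-Vp64 cells read 1.67 and 1.63, and tSBE6-Vp64 cells were again lowest at 1.25. The Dbx2 promoter took another order, with tShh-Vp64 cells lowest at 0.80. The number of promoters with each order was not counted. The Nog promoter, 1 kb on either side of the start, stood at the array median in all cells, at -0.08 and 0.09 on the NPC arrays and from -0.34 to 0.08 on the ESC arrays. That window held 8.81 CG per 100 bp, the densest of the windows read here, and over the 12 arrays 9 of its spots in Cy5 and 12 in Cy3 were saturated, whose part in the low ratio was not tested.

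**Figure D4:**
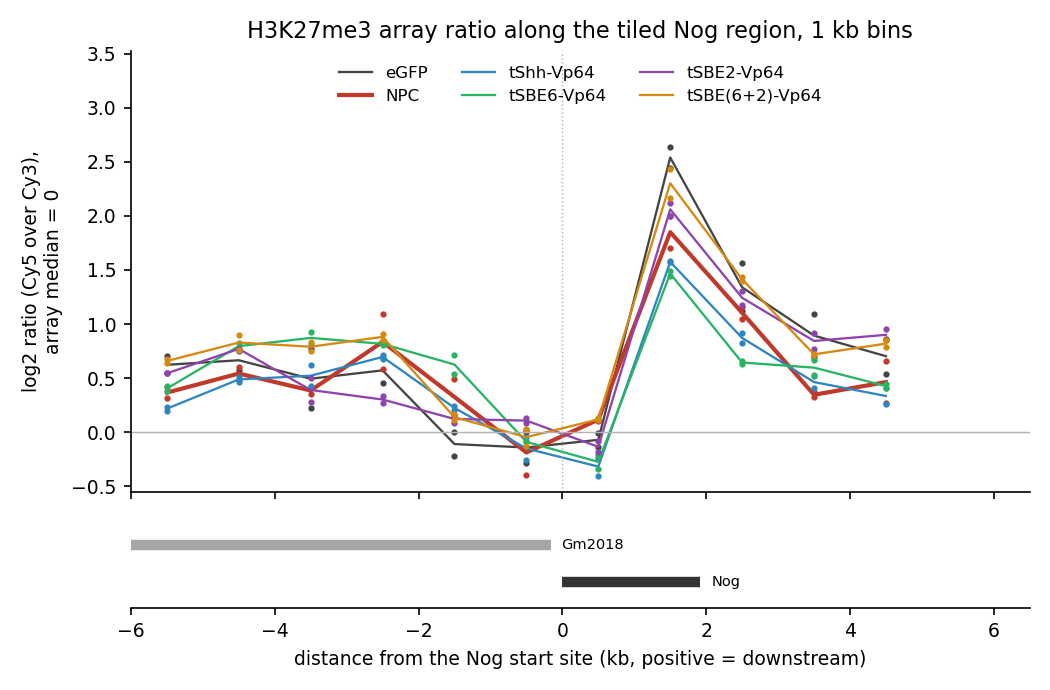
Log2 ratio (Cy5 over Cy3, y axis) in 1 kb bins against the distance from the Nog start site in kb (x axis, positive downstream), with a line for each population, points for its 2 arrays, and gene extents below (dark, same strand as Nog). All 6 populations stand near 0 around the start and reach 1.47 to 2.54 in the bin 1 to 2 kb downstream, with NPCs at 1.85.

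Upstream of Nog, over Gm2018, NPCs read 0.44 and ESC populations 0.51 ± 0.14 (SD, n = 5), and downstream 0.64 against 0.83 ± 0.24. In 0 of 11 bins were both NPC arrays above all ESC arrays, and in 1, 3 to 4 kb downstream, both lay below, at 0.37 and 0.32 against an ESC mean of 0.70 ± 0.18. Over the whole array 30.1% of 2 kb tiles lay above and 19.0% below, and of the 6 Nog tiles of that size 0 lay above and 0 below. Across the 11 bins the NPC and ESC profiles correlated at 0.95 (Pearson, bins of the same arrays). The Nog promoter difference of 0.11 ranked 71 of 113 (43 with the sign turned), and the Gm2018 promoter read -0.06 in NPCs against -0.15 ± 0.09.

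The flank of Bmp4 stood at the array median. It holds only the pseudogene Gm1821 (chr14:46703801-46704490). Its mean was -0.16 and -0.06 on the NPC arrays and -0.12 to 0.06 on the ESC arrays, an NPC minus ESC difference of -0.09. In 22 bins of 2 kb counted from the start of the region, both NPC arrays lay above all ESC arrays in 0 and below in 3. In the 22 flank tiles of 2 kb, drawn as over the whole array, they lay above in 1 and below in 2. The shares of such tiles over the whole array were 30.1% and 19.0%.

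In 5 kb tiles, both NPC arrays lay above all ESC arrays in 5 of 5 Bmp4, 0 of 3 Nog and 0 of 10 flank tiles, beside 32.8% of 963 tiles of the whole array. Both lay below in none of these 18 tiles, beside 23.2% of all tiles. Of single probes measured on all arrays, 181 of 190 at Bmp4, 5 of 101 at Nog and 13 of 428 in the flank lay above, beside 17.1% of 41408 probes. Those below numbered 0, 6 and 27, beside 8.81%. The tile differences were 1.70 to 2.88 at Bmp4, with ranks from 3 to 45 of 963 (919 to 961 with the sign turned), and from -0.13 to -0.04 at Nog, beside a median of 0.05 over all tiles.

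**Figure D5:**
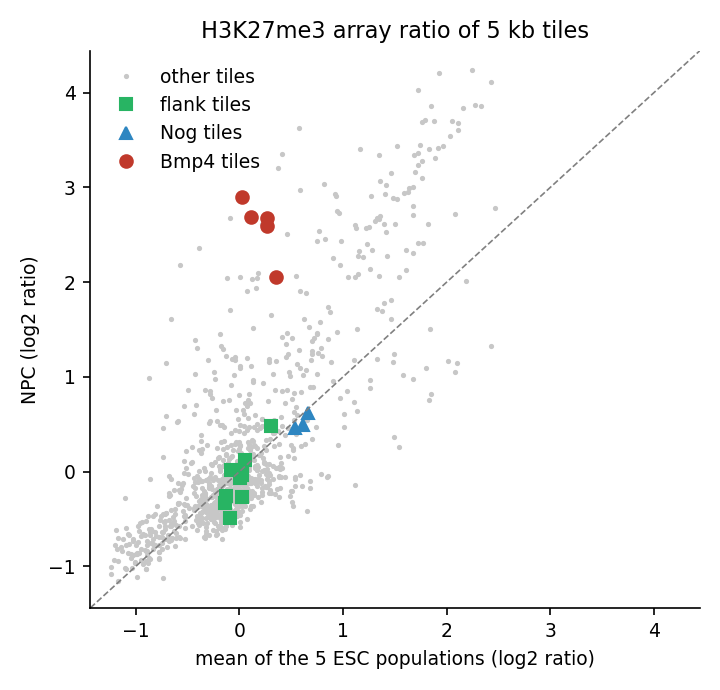
NPC log2 ratio (y axis) against the mean of the 5 ESC populations (x axis) for the 963 tiles of 5 kb, with the dashed line marking equal values. The 5 Bmp4 tiles lie at ESC means near 0 and 1.70 to 2.88 above the line, and the Nog and flank tiles lie near it.

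TALE-Vp64 populations were set against eGFP ESCs at these loci with limma over all tiles, as the mean of 4 populations against 1. No tile of the array passed an adjusted p of 0.05 (0 of 963, 0.0%), with 11 at an unadjusted p under 0.05, and 0 of the 18 tiles of these regions passed either. At Bmp4 the tile holding most of the gene (chr14:47005000-47009999) differed by -0.27 (SE 0.19), from 0.48 in eGFP cells to 0.21. Its neighbour over the start and upstream sequence (chr14:47010000-47014999) differed by 0.28 (SE 0.18), from -0.20 to 0.08. Both had an adjusted p of 0.997 by limma. At Nog the tile with the gene (chr11:89160000-89164999) differed by -0.22 (SE 0.18, limma adjusted p = 0.997). With 1 eGFP sample the test rests on the spread among the 4 constructs, of which tSBE(6+2)-Vp64 lay on another slide. Without it the lowest adjusted p among these tiles was 0.559, also by limma. Differences of the size given here could hardly pass at these SEs. A count of 0 therefore does not show that the mark was alike in these cells.

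Single constructs, each 1 sample with no test, differed from eGFP ESCs most in the bin 1 to 2 kb downstream of the start, at both genes, except tSBE(6+2)-Vp64 cells. These differed most in the bin 4 to 5 kb upstream of Bmp4 (1.11, from 0.12 to 1.23) and 2 to 3 kb upstream of Nog (0.31, from 0.57 to 0.88). In the Bmp4 intron the difference was -1.26 for tSBE6-Vp64, -0.97 for tShh-Vp64, -0.43 for tSBE2-Vp64 and 0.05 for tSBE(6+2)-Vp64 cells. In the Nog bin 1 to 2 kb downstream it was -1.07, -0.96, -0.48 and -0.24 in the same order. Over whole regions the differences were small, from -0.12 to 0.20 at Bmp4 and from -0.23 to 0.11 at Nog, where the 2 eGFP arrays themselves read 0.79 and 0.50. The range across all tiles was narrower in tShh-Vp64, tSBE6-Vp64 and tSBE2-Vp64 cells (slopes 0.86, 0.93 and 0.94) than in eGFP cells (1.04). It was wider in tSBE(6+2)-Vp64 cells (1.20), on the slide of the NPC arrays (NPC slope 1.24). Values were also divided by each population's slope on the mean of all 5 ESC populations, itself included, and not by the slopes above. The Bmp4 intron differences were then -1.19 for tSBE6-Vp64, -0.84 for tShh-Vp64, -0.32 for tSBE2-Vp64 and -0.11 for tSBE(6+2)-Vp64 cells, and those at Nog -0.91, -0.68, -0.28 and -0.47.

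Outside the region, the promoters with the pattern most like that of Bmp4 over the 6 population means were those of Hoxd10, Fgf4 and Dbx2, each with a Pearson correlation of 0.996. All points share the 12 arrays. The Pou5f1 and Shh promoters followed closely, at 0.992 and 0.972, so the order among such promoters distinguishes little. Over the 5 ESC populations alone the correlation was 0.76, 0.80 and 0.85 for Hoxd10, Fgf4 and Dbx2, and 0.24 and 0.85 for Pou5f1 and Shh. The NPC minus ESC differences of Hoxd10, Fgf4 and Dbx2 were 1.46, 1.72 and 1.84, from ESC means of 2.05, -0.06 and 0.97. For Nog the neighbouring Gm2018 promoter, whose window overlaps that of Nog, came first at 0.97. Outside the region they were Ptch1 (0.91), Igf2 (0.90) and Sox3 (0.89), with NPC minus ESC differences of 0.50, 0.62 and 0.19. The Shh promoter, at which the study was aimed, read 2.70 in NPCs against 1.43 ± 0.20 (SD, n = 5) in ESC populations, a difference of 1.28.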

How the data were processed

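The 12 arrays measured H3K27me3 by native ChIP after MNase digestion in 6 populations. Per the file headers, the authors scanned both dyes and used Feature Extraction 11.5.1.1, each dye as a single colour, to obtain spot intensity values that were not normalized between dyes. They also deposited a table of normalized log2 ratios with R1 and R2 combined, whose method is not stated with it. The submitters' processing notes name limma, and the study's methods describe other arrays. Of the deposited ratios, which correlated with log2 Cy5 over Cy3 at 0.899 to 0.944 across probes, the direction was kept.

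Log2 ratios of the processed signals were centred on each array's median (R 4.3.3, limma 3.58.1), with no loess or scaling. Control spots and spots marked as outliers were left out. Probes were averaged in windows, 1 kb bins and 5 kb tiles (5 or more probes on each array), and R1 and R2 were averaged to 1 sample. limma (lmFit, eBayes, Benjamini-Hochberg over 963 tiles) compared TALE-Vp64 with eGFP ESCs, and was tested on simulated data. There it called most tiles given a large shift and none of those given a small shift. P-values measure only the spread between these populations. The number of arrays limits the precision. Members, lists and windows were chosen with earlier results of these data known. The genes named were Bmp4, Nog, those with exons in the 3 regions, the 3 outside each region with the promoter pattern most like each by correlation, the markers and Shh. Alternatives were loess with scaling, normexp (offset 50, on median signals, as mean spot signals are not in the files used), the deposited ratios, probes well above background, 2 kb tiles, no probe minimum, medians over probes, a 2 kb promoter window, division by slope (on the mean of all 5 ESC populations), the same slide alone, and leaving out arrays or populations. A RefSeq promoter sequence was matched for 1 of the 2 genes.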

Additional observations from a re-analysis of the deposited data

Results flagged for a closer look

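Over the upstream part of the Bmp4 region, tSBE(6+2)-Vp64 ESCs read 0.45, far from the other 4 ESC populations at 0.08 to 0.15 (gap over range 0.79). In all, 26 groups of samples were checked in this way, and chance marks about 1 in 20. These cells are the only ESC population on the slide of the NPC arrays, so construct and slide cannot be told apart. Their arrays also had the lowest shares of probes well above background in Cy3, 58.2% and 73.8%, whose part was not tested.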

How the results depend on the processing

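Directions of the NPC minus ESC difference at Bmp4 held under every alternative run. The region's 2.47 became 1.83 under loess and scaling, 2.31 under normexp, 1.72 in the deposited ratios, 2.13 over probes well above background, 1.95 divided by slope and 2.25 against the same slide alone. The Bmp4 promoter's 2.31 became 1.68, 2.16, 1.59, 1.71, 1.83 and 2.13 in the same order, and 2.71 in a 2 kb window. At Nog the region's -0.07 became -0.20 under loess and scaling, -0.26 in the deposited ratios and -0.21 against the same slide, and the promoter's 0.11 became -0.14 in the deposited ratios and -0.052 against the same slide. The flank's -0.09 became -0.17 in the deposited ratios and -0.15 over probes well above background.

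For the TALE-Vp64 test, limma called 0 tiles under every alternative but 1, the fits without replicate 1, which called 1 tile (lower, outside these regions). The range over fits that left out arrays or populations was 0 to 1, and tiles at an unadjusted p under 0.05 numbered 5 to 81 (81 without tSBE(6+2)-Vp64 cells). R1 and R2 numbers do not pair the samples (correlations of their deviations -0.25 to 0.43). With arrays as separate samples, 0 tiles were called without a replicate block (73 unadjusted) and 0 with the replicate block (64 unadjusted).

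Differences of single constructs from eGFP cells were small and unstable over the regions. At Bmp4, tShh-Vp64 cells (-0.12) gave -0.049 in the deposited ratios and -0.040 as a median over probes. tSBE6-Vp64 cells (-0.11) gave -0.050 in the deposited ratios, -0.056 over probes well above background and -0.0016 as a median over probes. tSBE2-Vp64 cells (-0.05) gave -0.0092 in the deposited ratios, 0.022 over probes well above background, -0.0014 as a median over probes, and -0.081 to -0.028 without either array number. tSBE(6+2)-Vp64 cells (0.20) gave 0.092 under loess and scaling, 0.13 in the deposited ratios, 0.075 over probes well above background, 0.14 as a median and 0.15 divided by slope. At Nog, tShh-Vp64 cells (-0.23) gave -0.12 in the deposited ratios and tSBE(6+2)-Vp64 cells (0.11) gave -0.057 under loess and scaling. Without either array number the Nog differences were -0.36 to -0.10 for tShh-Vp64, -0.22 to 0.043 for tSBE6-Vp64, -0.15 to 0.15 for tSBE2-Vp64 and -0.056 to 0.27 for tSBE(6+2)-Vp64 cells.

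Signs also turned in smaller values. In the flank, tShh-Vp64 gave -0.026 over probes well above background, and tSBE(6+2)-Vp64 gave -0.0095 under loess and scaling, -0.025 under normexp, -0.035 over probes well above background and -0.015 to 0.094 without either array number. At the Bmp4 promoter, tSBE6-Vp64 gave 0.076 as a median over probes, and tSBE2-Vp64 gave 0.056 in the deposited ratios, 0.0055 over probes well above background, 0.049 as a median and -0.17 to 0.014 without either array number. At the Nog promoter tSBE6-Vp64 gave -0.24 to 0.028 without either array number, and in the Bmp4 intron tSBE2-Vp64 gave 0.13 over probes well above background. In the deposited ratios the Bmp4 region read -0.034 in eGFP and -0.044 in tSBE2-Vp64 ESCs, and under loess and scaling the flank read 0.036 in tSBE2-Vp64 ESCs. Tiles of the whole array with both NPC arrays above or below all ESC arrays numbered 679 and 428 of 2258 when tiles were 2 kb long, against 316 and 223 of 963, since more tiles were read. There 11 of 11 Bmp4 tiles lay above. Further values of single windows and populations were labelled by the spread between replicates, 98 as moved, 15 as turned in sign and 181 as the same. Of the values behind the main results, 42 were labelled as moved, 3 as turned and 126 as the same, and 3 counts rose. For NPC minus ESC differences the spread was the SD among ESC populations. A value was labelled as turned only if its main value exceeded the spread. The Nog promoter's changes to -0.14 and -0.052 were therefore labelled as moved. Sign changes within the spread were labelled as the same, so more signs changed than these labels count. The cause of the other changes was not tested. Few arrays, 1 sample per population and probes close to background limit all values.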
